A study of Drosophila melanogaster with 6 samples.

Results

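The proteasome subunits described here were the genes whose array annotation symbol begins with Prosalpha, Prosbeta, Rpn or Rpt followed by a digit. Of the 11982 genes with a probe set of their own, 40 met this rule, each through 1 probe set. They comprised 12 standard subunits of the core particle, 14 standard subunits of the regulatory particle and 14 paralogues with the suffix T or R, here called testis-type paralogues, 10 of the core and 4 of the regulatory particle. The 8 further subunit or paralogue symbols in the gene table, Prosalpha1, Prosalpha1R, Prosbeta1, Rpn9, Rpn10, Rpt1, Rpt6 and Rpt6R, were not analysed here. RNA came from Schneider 2 (S2) cells, a macrophage-like Drosophila line of embryonic origin. In the fragment group (3 samples) each cell had been given 25 apoptotic cell fragments for 1 h at 25 °C, and in the medium-alone group (3 samples) no fragments were added over the same time. The cells were maintained with 10% serum, while the medium of both groups in the experiment held 1% serum. Trypsin with EDTA was used to detach the cells of both groups. The fragments were prepared from S2 cells that had been kept for 24 h in 1.5 µg/ml cycloheximide, an inhibitor of protein synthesis, so the particles and the responding cells were of 1 line. Any transcript or cycloheximide brought in by the fragments cannot be told apart from a response of the cells, and in such bulk RNA fewer cells with a transcript and less of it per cell cannot be told apart either.

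The proteasome degrades proteins that carry ubiquitin chains. Its core particle is a barrel of stacked rings, with α subunits in the outer rings that gate the entrance and β subunits in the inner rings that hold the proteolytic sites. The regulatory particle caps the barrel: its base holds the Rpt ATPases, which unfold and thread substrates, and its lid holds the Rpn11 deubiquitinase, which removes the chain. In Drosophila several subunits have a second gene that is used mainly in the testis. In flies and mammals, subunit genes are known to be raised together when proteasome activity is blocked, through the factor cnc in the fly and its relative NRF1 in mammals.

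Levels were log2 values per probe set as deposited, so that a difference of 1 is a doubling, and differences are fragments minus medium alone. Groups were compared with limma on all 18769 probe sets, and a gene was called at a Benjamini-Hochberg adjusted p under 0.05. A probe set is called flat where its 6 values lay within 0.01 log2 units, as held for 61.4% of the probe sets tested, and varying otherwise. Such a value shows neither absence nor constancy of the transcript. The fit was also run over the 7241 varying probe sets alone. One array stood apart: across the varying probe sets, medium-alone replicate 3 correlated with medium-alone replicates 1 and 2 at r = 0.9793 and 0.9807, whereas those correlated with each other at 0.9986 and the fragment arrays among themselves at 0.9947 to 0.9976. Replicates 1 and 2 of medium alone correlated with the fragment arrays at 0.9866 to 0.9880, higher than with replicate 3 of their own group. Replicate 3 correlated with the fragment arrays at 0.9572 to 0.9671. Results are therefore also given without replicate 3 of medium alone. Of 11 blood cell markers 9 varied, with srp, a blood cell GATA factor, at 10.82 and the collagen gene vkg at 11.19 on average over the 6 arrays, while Hml stood at 9.30. NimC1, a plasmatocyte marker, was flat at 6.09 and He stood at 5.96, below the median of all flat probe sets (6.23).

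No proteasome subunit passed the threshold after 1 h with fragments. Of the 40 genes, limma called 0 over all probe sets, where it called 0.304% of the 18769 (0.25% lower and 0.0533% higher with fragments). The fit over the varying probe sets held 20 standard subunits and 1 paralogue, and the flat genes could not be called there. It called 0 of those it held, against 6.85% of all varying probe sets (4.56% lower and 2.29% higher). The 26 standard subunits were abundant on the array, with mean log2 values between 9.42 and 11.39, and 20 of them varied. Before adjustment, 4 of the 26 (Prosalpha7, Rpn3, Rpn7 and Rpn12) had a limma p under 0.05, against 10.8% of all probe sets, and in the fit over the varying probe sets 4 of 20 did (Prosalpha7, Rpn7, Rpn11 and Rpn12), against 23.6%. The differences were small: none of the 26 reached 1.5-fold, whereas 6.19% of the varying probe sets did. The 95% limma intervals of the 20 varying subunits, over all probe sets, reached down to -0.76, for Rpn12, and up to 0.40, for Prosbeta3.

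On the deposited scale most differences were below 0. Of the 20 varying standard subunits, 17 had a difference below 0 and 3 above, with a median of -0.10, where 52.2% of all varying probe sets lay below 0 and their median was -0.0035. The 3 fragment arrays lay wholly below the 3 arrays of medium alone in 6 of the 20 (Prosalpha7, Prosbeta4, Rpn3, Rpn7, Rpn11 and Rpn12) and wholly above in 0, against 17.4% and 14.7% of the varying probe sets. The sign of these differences depended on the scale and on 1 array. Another scale takes the mean of 18 hybridisation spike-in probe sets as the zero of every array. There each difference moved up by 0.26, the median of the 20 became 0.16, and 19 of the 20, all but Rpn12, were above 0. All varying probe sets moved likewise, to a median of 0.26 with 11.6% below 0, so the median of the 20 stayed below theirs. The spike-ins themselves read 10.38 ± 0.11 with fragments and 10.64 ± 0.16 in medium alone (SD, n = 3 each; p = 0.2 by a two-sided exact permutation test, which cannot go below 0.1). Without medium-alone replicate 3, the deposited values gave 14 differences below 0 and 6 above, with a median of -0.054, where 53.9% of the varying probe sets lay below 0.

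**Figure D1:**
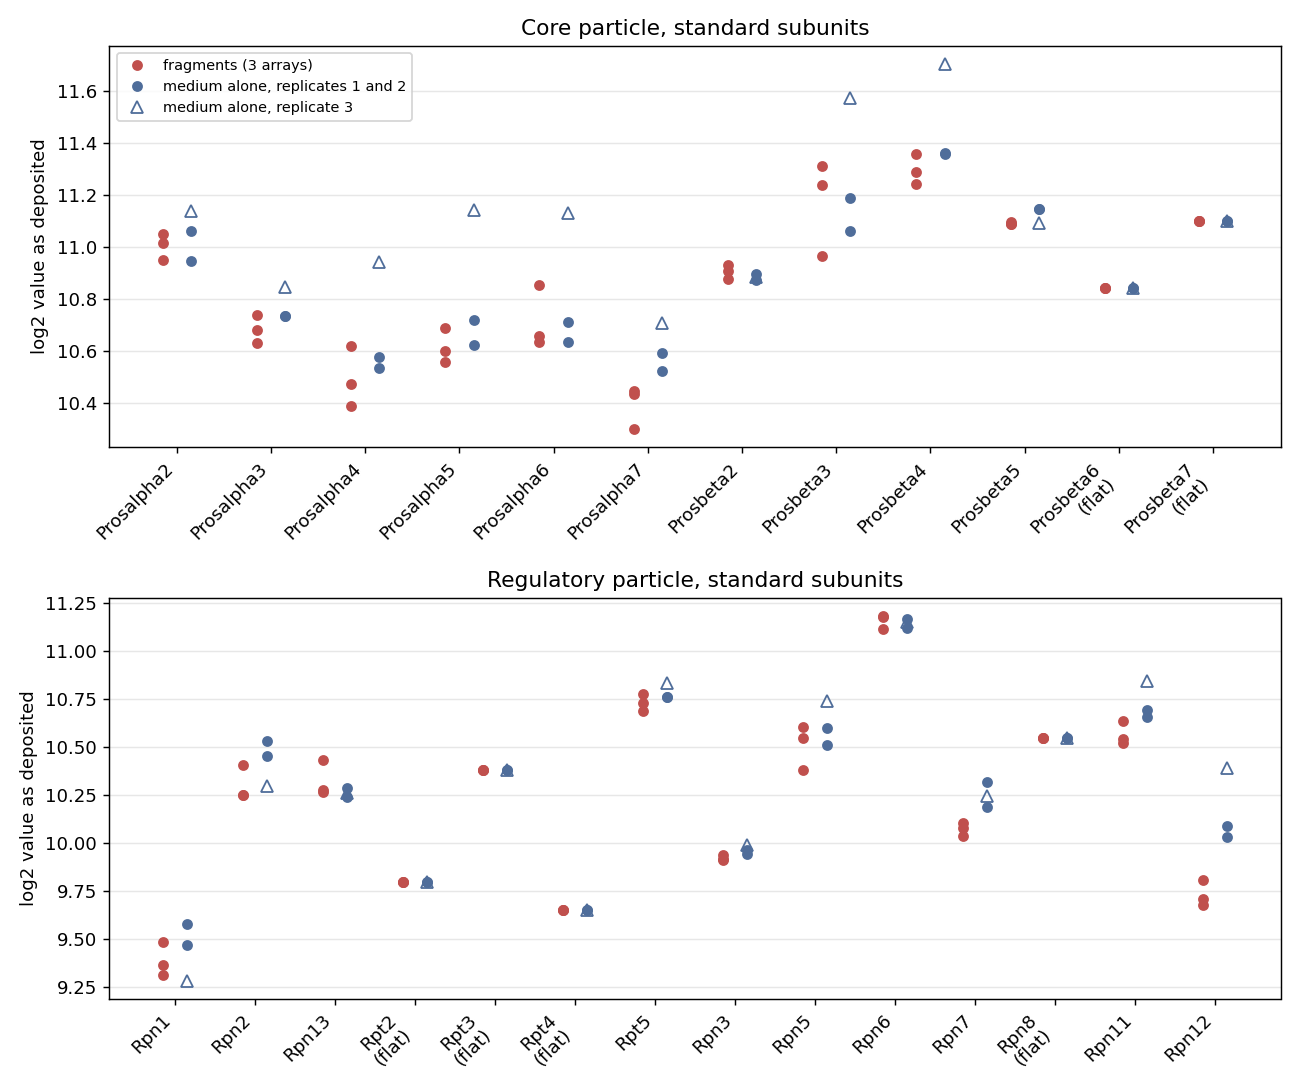
Deposited log2 values (y axis) of the 12 core and 14 regulatory standard subunits (x axis), with the 3 fragment arrays in red and the 3 arrays of medium alone in blue, replicate 3 of medium alone as an open triangle. The triangle is the highest of the 6 points in 8 of the 10 varying core subunits, and the points of the 6 flat subunits coincide.

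The α ring of the core particle was represented by 6 standard subunits, all varying, and all 6 had differences below 0 on the deposited scale (all above 0 on the spike-in scale), with a median of -0.15. Prosalpha7, an outer ring subunit, read 10.43, 10.30 and 10.45 with fragments, against 10.59, 10.52 and 10.71 in medium alone. The groups did not overlap, by a margin of 0.077, and the difference of -0.21 (SE 0.071) did not pass over all probe sets (limma adjusted p = 0.415) or over the varying ones (0.129). Prosalpha5 read 10.60, 10.56 and 10.69 with fragments, against 10.63, 10.72 and 11.14 in medium alone. The last of these arrays stood far above the others, and the difference of -0.21 (SE 0.162) became -0.056 without it.

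Prosalpha4 and Prosalpha6 had the same layout. Prosalpha4 stood at 10.47, 10.39 and 10.62 with fragments, against 10.58, 10.53 and 10.94 in medium alone, and Prosalpha6 at 10.63, 10.85 and 10.66, against 10.71, 10.63 and 11.13. In both genes the groups overlapped and replicate 3 of medium alone was the highest array. Their differences of -0.19 (SE 0.144) and -0.11 (SE 0.167) had limma adjusted p of 0.749 and 0.886, and without that array they were -0.063 and 0.043. Prosalpha3, whose yeast relative supplies the main part of the gate, differed by -0.089 (SE 0.048), from 10.68 ± 0.056 with fragments and 10.77 ± 0.064 in medium alone (SD, n = 3 each). Prosalpha2 differed by -0.043 (SE 0.061), and without replicate 3 of medium alone its difference was 0.0014.

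In the β ring, both measured subunits with a proteolytic site had small differences on the deposited scale. Prosbeta5, which carries the chymotrypsin-like site, read 11.09, 11.10 and 11.09 with fragments, against 11.15, 11.15 and 11.09 in medium alone. The difference was -0.037, with a 95% limma interval of -0.09 to 0.01 (adjusted p = 0.589). Its probe set has a suffix that the manufacturer gives to probes shared by several transcripts. Those of Prosbeta7, Rpn6, Rpn13, Rpn12R, cnc, Keap1, PI31 and Ubi-p63E have it too. Prosbeta2, which carries the trypsin-like site, read 10.88, 10.93 and 10.91 with fragments, against 10.87, 10.90 and 10.89 in medium alone. It was the only varying core subunit with a difference above 0 on the deposited scale, 0.021, with an interval of -0.02 to 0.07 (adjusted p = 0.759). Over the varying probe sets the intervals were wider, -0.11 to 0.04 for Prosbeta5 and -0.05 to 0.09 for Prosbeta2, and were still the narrowest of the varying core subunits.

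Of the structural β subunits, Prosbeta4 had the highest mean level of the standard core subunits, and Prosalpha7 the lowest, though signals of different probe sets do not rank transcripts. Prosbeta4 read 11.24, 11.36 and 11.29 with fragments, against 11.36, 11.36 and 11.70 in medium alone. The groups were apart by only 0.00060, and the difference of -0.18 (SE 0.117, adjusted p = 0.701) was -0.063 without replicate 3 of medium alone. Prosbeta3 had the largest SE of the standard subunits, with values of 10.97, 11.31 and 11.24 with fragments, against 11.19, 11.06 and 11.58 in medium alone. Its groups overlapped, and its difference of -0.10 (SE 0.184) turned to 0.048 without that array. Prosbeta6 was flat at 10.84 and Prosbeta7 at 11.10, so that neither can show a difference.

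**Figure D2:**
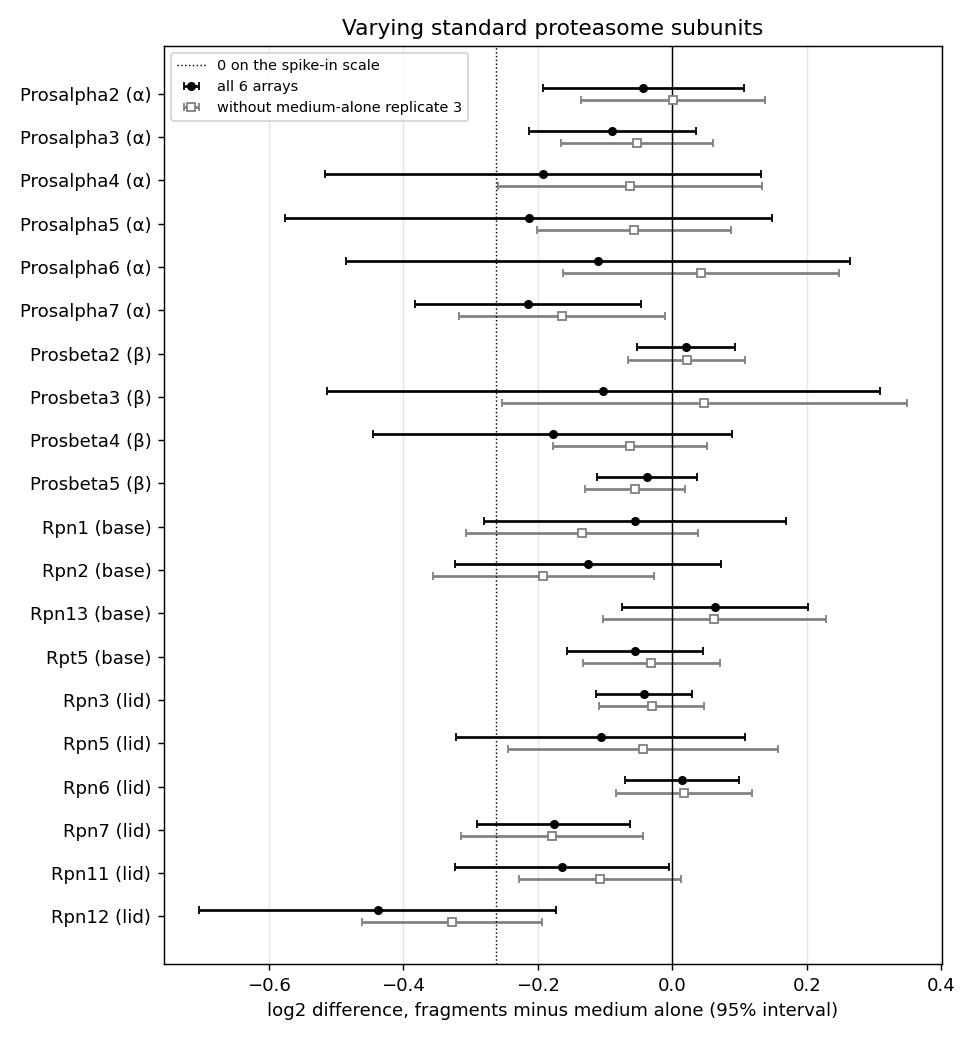
Log2 difference, fragments minus medium alone, of the 20 varying standard subunits (rows), with 95% intervals from limma over the varying probe sets, for all 6 arrays (black) and without replicate 3 of medium alone (grey); the dotted line marks where 0 lies on the spike-in scale. Rpn12 stands lowest with both sets of arrays and is the only subunit left of the dotted line, while the wide intervals of Prosalpha4, Prosalpha5, Prosalpha6, Prosbeta3 and Prosbeta4 narrow without that array.

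In the base of the regulatory particle, 3 of the 4 measured ATPase genes were flat: Rpt2 at 9.80, Rpt3 at 10.38 and Rpt4 at 9.65. Rpt5, the ATPase subunit that varied, read 10.69, 10.73 and 10.78 with fragments, against 10.76, 10.76 and 10.83 in medium alone. The arrays overlapped, and the difference of -0.056 (SE 0.035) did not pass (limma adjusted p = 0.686). With the flat Rpn8 of the lid and the flat Prosbeta6 and Prosbeta7, 6 of the 26 standard subunits (23.1%) were flat at high signal. Of the 1825 probe sets with a mean level at least as high as that of the lowest standard subunit, 8.49% were flat.

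The large scaffold subunits of the base went the other way from the α ring on replicate 3 of medium alone. Rpn2, which holds the ubiquitin receptor Rpn13, read 10.25, 10.25 and 10.40 with fragments, against 10.53, 10.45 and 10.30 in medium alone. That array was the lowest of its group and overlapped the fragment arrays. The difference was -0.13 (SE 0.085, limma adjusted p = 0.704) and widened to -0.19 without it, which still did not pass over the varying probe sets (0.136). Rpn1, a docking platform for ubiquitin receptors and the standard subunit with the lowest mean level in the regulatory particle, read 9.37, 9.32 and 9.48 with fragments, against 9.47, 9.58 and 9.29 in medium alone. Here too replicate 3 of medium alone was the lowest array, and the difference of -0.055 became -0.13 without it. Across all varying probe sets this array was the lowest of the 6 in 33.6%. Rpn13, a ubiquitin receptor, had the largest positive difference of the standard subunits, 0.063 (SE 0.056, adjusted p = 0.787). It read 10.28, 10.26 and 10.43 with fragments, against 10.29, 10.24 and 10.26 in medium alone, and only 1 fragment array stood above the others. Its probe set has the suffix described for Prosbeta5. With probe sets of this and similar suffixes left out, 12 regulatory subunits remained, 8 below 0 and 0 above.

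The largest difference of all subunits was in the lid. Rpn12, a lid subunit that in yeast is the last to join and triggers the docking of the lid, read 9.68, 9.71 and 9.81 with fragments, against 10.09, 10.03 and 10.39 in medium alone. The groups were apart by 0.22, the widest margin of any subunit, and Rpn12 averaged 9.73 ± 0.068 with fragments and 10.17 ± 0.19 in medium alone (SD, n = 3 each), a difference of -0.44 (SE 0.117) or 1.35-fold. It did not pass over all probe sets (limma adjusted p = 0.334) or over the varying ones (0.0773). Without replicate 3 of medium alone the difference was smaller, -0.33, but the remaining arrays were closer together. It then passed over the varying probe sets (adjusted p = 0.0240), where 12.1% of probe sets were called, 7.37% lower and 4.72% higher with fragments, though not over all probe sets (0.235). This setting was chosen after the data were seen. With any other array left out of the fit to varying probe sets, the limma adjusted p of Rpn12 was 0.11 to 0.24. Rpn12 was also the only standard subunit below 0 on the spike-in scale, at -0.18 (adjusted p = 0.223). Over all settings its adjusted p ran from 0.0240 to 0.676.

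Rpn7, a scaffold subunit of the lid, read 10.04, 10.11 and 10.08 with fragments, against 10.32, 10.19 and 10.25 in medium alone. All fragment arrays were below all arrays of medium alone, and replicate 3 of medium alone lay between the other arrays of its group. The difference of -0.18 (SE 0.042) did not pass (limma adjusted p = 0.295, or 0.0868 in the fit to varying probe sets) and was the same to 2 decimals without that array. On the spike-in scale it was 0.085.

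Rpn11, the deubiquitinase, read 10.52, 10.54 and 10.63 with fragments, against 10.69, 10.65 and 10.84 in medium alone, apart by 0.022. Its difference of -0.16 (SE 0.066) had a limma adjusted p of 0.505, or 0.199 over the varying probe sets. Its partner Rpn8 was flat at 10.55. Rpn3 was apart by only 0.0067, with a difference of -0.042. Rpn5 differed by -0.11 (SE 0.093) with overlapping groups. Rpn6, the lid scaffold that clamps the lid to the core and the regulatory subunit with the highest mean level, read 11.18, 11.12 and 11.18 with fragments, against 11.17, 11.12 and 11.15 in medium alone, a difference of 0.014 with an interval of -0.06 to 0.08. Rpn12, Rpn7, Rpn11 and Rpn3 thus made up 4 of the 6 varying lid subunits that did not overlap, all lower with fragments on the deposited scale (on the spike-in scale only the difference of Rpn12 was below 0). In the base 0 of 4, in the α ring 1 of 6 and in the β ring 1 of 4 varying subunits did not overlap, against 17.4% of all varying probe sets lower and 14.7% higher without overlap, and these groups were not tested against each other.

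Over the particles, the 12 core genes had a median difference of -0.096 and the 14 regulatory genes of -0.049, flat genes included (0.17 and 0.21 on the spike-in scale, which shifts the median of all probe sets by 0.26). Flat genes, 2 in the core and 4 in the regulatory particle, draw these medians towards 0 to unlike degrees. Over the varying genes alone the medians were -0.11 and -0.081, and the particles were not tested against each other. Much of the core value lay in replicate 3 of medium alone, where all 6 α subunits had their highest value of the 6 arrays. In the varying core subunits this array was the highest in 8 of 10, and in the varying regulatory subunits in 5 of 10, against 29.9% of all varying probe sets. The α subunits stood above the mean of the other arrays of medium alone by 0.11 (Prosalpha3) to 0.47 (Prosalpha5). Without the array the core median was -0.026, and the core genes split into 6 below and 4 above 0 with 2 flat. The regulatory median without it was -0.031, with 8 below and 2 above 0. Over the varying genes alone the order was reversed without this array, with medians of -0.054 in the core and -0.076 in the regulatory particle.

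**Figure D3:**
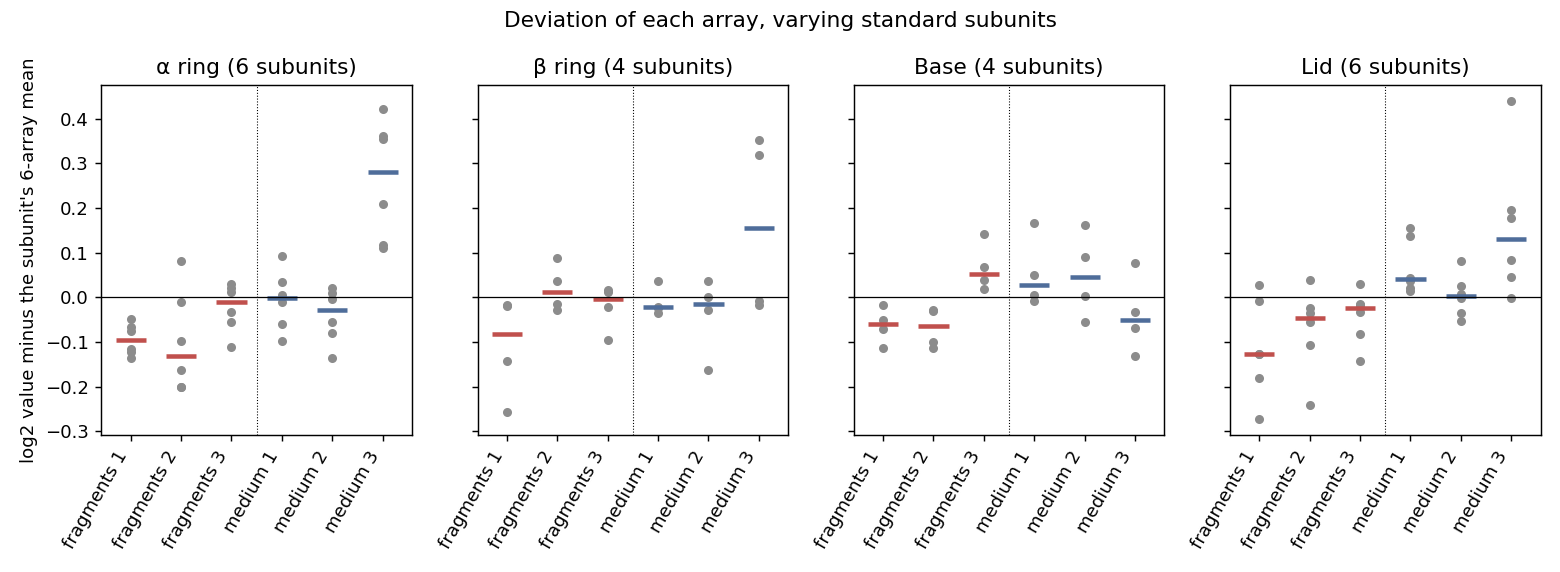
Deviation of each array from a subunit's own mean over the 6 arrays (y axis, log2 units) for the varying standard subunits of the α ring, β ring, base and lid; each grey point is 1 subunit and the bars are medians, red for fragments and blue for medium alone. On replicate 3 of medium alone the median of the α ring is 0.28, of the β ring 0.15, of the lid 0.13 and of the base -0.051; these medians were not tested against each other.

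The testis-type paralogues stood at low, almost motionless values in both groups. Their means over the 6 arrays lay between 5.85 (Prosbeta5R2) and 6.67 (Prosalpha4T2), around the median of all flat probe sets, and 58.2% of all probe sets had a mean at or below that of Prosalpha4T2. Of the 14, 13 were flat: Prosalpha3T at 6.09, Prosalpha4T2 at 6.67, Prosalpha6T at 6.30, Prosbeta2R1 at 6.50, Prosbeta2R2 and Prosbeta4R1 at 5.98, Prosbeta4R2 at 5.91, Prosbeta5R1 at 5.94, Prosbeta5R2 at 5.85, Rpn12R at 6.23, Rpn13R at 5.95, Rpt3R at 6.13 and Rpt4R at 6.23. Prosalpha6T, a paralogue required for sperm formation in the fly, was thus flat where its standard counterpart Prosalpha6 ran between 10.63 and 11.13. Prosbeta4R1 and Prosbeta4R2 lie close together in the genome, with 1 gene between them in the RefSeq table.

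Prosalpha4T1 was the exception, with 6.24, 6.23 and 6.23 with fragments, against 6.18, 6.26 and 6.25 in medium alone. The groups overlapped and the difference was -0.00025 (SE 0.025, limma adjusted p = 1). In limma over all probe sets 0 of the 14 were called. An unadjusted p under 0.05 was reached by 1, the flat Rpt4R, which read 6.23 on all 6 arrays. Of the 16 markers of testis, 14 were flat, and the mean level of the 16 on an array lay between 6.37 and 6.39 with fragments and between 6.31 and 6.32 in medium alone. The 2 that varied were bam, a regulator of germ cell differentiation, at 7.81 with fragments and 6.90 in medium alone (difference 0.91, adjusted p = 0.181), and mia, at 8.03 over the 6 arrays (difference 0.056, adjusted p = 0.759). Whether bam has any part in the values of the paralogues was not tested.

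**Figure D4:**
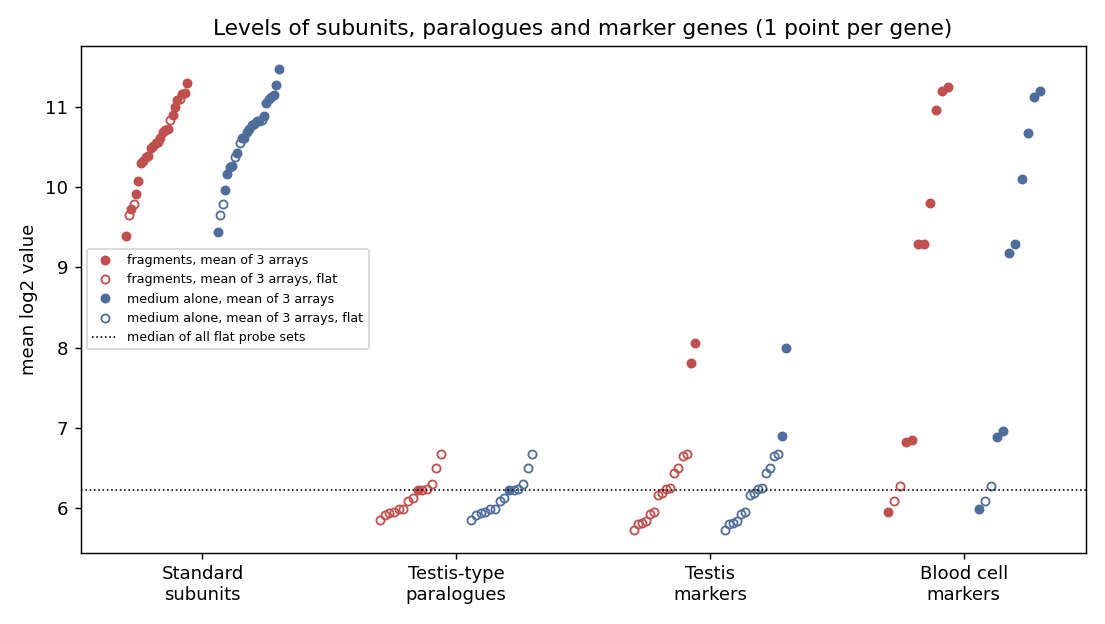
Mean log2 value over the 3 arrays of a group (y axis) of each standard subunit, testis-type paralogue, testis marker and blood cell marker (1 point per gene, red for fragments and blue for medium alone, open where flat); the dotted line is the median of all flat probe sets, 6.23. The paralogues and most testis markers lie close to this line in both groups, and every standard subunit, flat or varying, lies above 9.3.

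Genes that act with the proteasome were examined as a list of 26 symbols, 22 of them measured and 19 varying. Over all probe sets limma called 0 of the 22, with 4 at an unadjusted p under 0.05, and over the varying probe sets it called 1, upward, where 2.29% of probe sets were called in that direction. The list was chosen with earlier results of these data known, so its counts beside such shares are no test of the list. Over the 19, 12 differences were above 0 and 7 below, with a median of 0.020. The gene called was Mitf, the fly relative of TFEB, a regulator of lysosome and autophagy genes. It read 7.64, 7.64 and 7.75 with fragments, against 6.75, 6.93 and 6.78 in medium alone, a rise of 0.86 (SE 0.064 over the varying probe sets, adjusted p = 0.00367; 0.0553 over all probe sets).

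The factor cnc, which controls subunit genes in the fly, was not called on the deposited scale, but was on the spike-in scale (difference 0.50, limma adjusted p = 0.00555). On that scale limma gave subunits of unlike spread the same SE, 0.139, so a call there does not reflect a gene's own spread. The shift to that scale itself rests on 3 arrays per group. The cnc probe set read 8.79, 8.67 and 8.81 with fragments, against 8.67, 8.62 and 8.25 in medium alone. Replicate 3 of medium alone was the lowest array, as in 33.6% of all varying probe sets. The groups overlapped, and the difference of 0.24 (SE 0.137, limma adjusted p = 0.653) became 0.11 without that array. The cnc value comes from its brighter probe set, and the other was flat at 5.74. Its partner maf-S and its inhibitor Keap1 differed by -0.053 and 0.037, and Pngl, the relative of the glycanase that processes NRF1 in mammals, by 0.17, with adjusted p of 0.930, 0.948 and 0.637.

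Among ubiquitin genes and shuttle factors, the arrays of 4 further genes did not overlap between groups. With Mitf this made 4 of the 19 varying related genes higher and 1 lower without overlap, where 14.7% and 17.4% of all varying probe sets were. Ubi-p63E, a polyubiquitin gene, read 11.92, 11.67 and 11.70 with fragments, against 11.55, 11.59 and 10.82 in medium alone, where replicate 3 was far below its group. The difference of 0.44 (SE 0.257, limma adjusted p = 0.655) became 0.19 without it. The other polyubiquitin gene, Ubi-p5E, differed by 0.11 and Rad23, which carries ubiquitinated proteins to the proteasome, by 0.24, both higher with fragments and not called on the deposited scale (adjusted p = 0.384 and 0.327). On the spike-in scale, where 0.26 is added to every difference, Mitf, cnc, Rad23, Ubi-p63E and Pngl were called, all higher with fragments, as were 7.95% of all probe sets in that direction. These calls share the limit given for cnc. The shuttle factor gene rngo, the fly Ddi1, was lower with fragments by 0.15 on the deposited scale and 0.11 higher on the spike-in scale (adjusted p = 0.220 on the deposited one).

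RpL40 and RpS27A, which encode ubiquitin fused to a ribosomal protein, differed by 0.011 and -0.0015. The proteasome activator gene REG read 10.78, 10.78 and 10.82 with fragments, against 10.82, 10.90 and 10.98 in medium alone, a difference of -0.10 (SE 0.048, limma adjusted p = 0.574). Pomp, which assists assembly of the core particle, differed by -0.17 (SE 0.126), with replicate 3 of medium alone again the highest array at 10.32. PI31, a proteasome-binding regulator, and TER94, the unfolding ATPase of the p97 family, were flat at 9.16 and 11.79.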

How the data were processed

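Per the labels' protocols, 150 ng of purified RNA per sample was turned into biotin-labelled cRNA for Affymetrix arrays, by a kit that primes at the poly-A end. The deposited values are log2 values, 1 per probe set and array. The submitters' processing notes list R 2.7.2. How the authors summarised and normalized the probes was not given in the sources used here, and what makes a probe set flat is thus unknown. Labels call the replicates biological without naming separate cultures, so p-values measure the spread between these samples. Array number limits the precision.

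Of 18952 probe sets, 183 controls were left out of the test. Of the rest, 13647 had 1 gene symbol, 402 had several and 4720 were unnamed. Each gene was represented by its brightest probe set. The 40 member symbols matched RefSeq symbols. The test was limma's moderated one (limma 3.58.1, R 4.3.3, lmFit and eBayes without trend, two-sided). A check on simulated data set a condition only on the sign of planted differences of 1 or more, larger than that of any subunit. Smaller differences were planted too, but how many of them were called is not reported here. The size of difference that the fit could call is therefore not given. The prior had an SD of 4.38e-09 and 0.123 degrees of freedom over all probe sets, so p-values were barely moderated there, and an SD of 0.0612 and 1.36 degrees of freedom over the varying ones. On the spike-in scale subunits of unlike spread had the same SE of 0.139, so p-values and calls there do not reflect a gene's own spread. Alternatives were the varying probe sets, quantile normalization, the spike-in scale (bioB, bioC, bioD and cre probe sets), trend with robust, filters on dim and on unspecific probe sets, gene means, a replicate block and omission of each array. Members, gene lists and tests were chosen with earlier results of these data known. Named were the catalytic subunits, the highest and lowest subunit of each particle, up to 4 largest differences each way per particle, every subunit or related gene called, every paralogue, and cnc, PI31, REG and TER94. The other standard subunits were added after their values were seen, as were Pomp, maf-S, Keap1, Pngl, Ubi-p63E, Ubi-p5E, Rad23, rngo, RpL40 and RpS27A.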

Additional observations from a re-analysis of the deposited data

How the results depend on the processing

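Only 1 standard subunit changed its call under any setting. Over the varying probe sets with 1 array left out, a setting chosen after seeing the data, 0 to 1 regulatory genes were called, the 1 being Rpn12 without replicate 3 of medium alone; core genes and testis-type paralogues stayed at 0 calls in limma under every setting. Of the related genes, 1 (Mitf) was called over the varying probe sets, with each array left out there, with quantile normalization, with dim probe sets left out and with a replicate block over the varying probe sets, and 5 on the spike-in scale, cnc among them (0.50, adjusted p = 0.00555). Calls on the spike-in scale have the limit given above, that they do not reflect a gene's own spread.

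The number of all probe sets called was 57, but 496 over the varying probe sets, 128 with quantile normalization, 1685 on the spike-in scale, 205 without dim and 19 without unspecific probe sets, 0 to 8 with 1 array left out, and, with 1 array left out over the varying probe sets, 156, 183 and 876 without medium-alone replicates 1, 2 and 3 and 140, 129 and 318 without fragment replicates 1, 2 and 3. Falls made up 47 of the 57, 89 of the 128 and 193 of the 1685. The replicate block gave 0 calls, and 449 over the varying probe sets. Deviations of same-numbered arrays correlated at r = 0.4415, 0.0381 and 0.3750, and those of arrays with unlike numbers at -0.4854 to 0.4635. The labels name no shared day or culture, so the numbers were not taken to pair the samples.

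With 1 array left out the median of the core genes ran from -0.16 to -0.026 (-0.21 to -0.054 over the varying probe sets) and that of the regulatory genes from -0.058 to -0.027 (-0.11 to -0.046). On the spike-in scale they were 0.17 and 0.21, since 0.26 is added to each difference. There the differences of Prosalpha2 to Prosalpha7 were 0.22, 0.17, 0.070, 0.048, 0.15 and 0.047, those of Prosbeta3, Prosbeta4 and Prosbeta5 0.16, 0.084 and 0.22, those of Rpn1, Rpn2, Rpn3, Rpn5, Rpn7 and Rpn11 0.21, 0.14, 0.22, 0.16, 0.085 and 0.097, that of Rpt5 0.21 and that of REG 0.16, each opposite in sign to the deposited scale. With 1 array left out, Prosalpha2 ran from -0.094 to 0.0014, Prosalpha6 from -0.21 to 0.043, Prosbeta3 from -0.21 to 0.048 (each highest without replicate 3 of medium alone) and Rpn1 from -0.13 to 0.013.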
